A study of Homo sapiens with 21 samples.

Results

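The transcripts described are those of 10 genes that restrain the kinase complex mTORC1 or cap-dependent translation: SESN1, SESN2, SESN3, DDIT4, CASTOR1, TSC1, TSC2, DEPTOR, EIF4EBP1 and EIF4EBP2. They were found by matching the Ensembl identifiers of the count table to these symbols, and all 10 were present among 54042 genes. Of the 10, 9 had enough reads for the gene-wise test and CASTOR1 did not. DDIT4 passed the filter on low counts only through the ironomycin groups, in which it was high, so it had to differ: its test is not given, and counts and medians of tested members are over the other 8.

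The study profiled 3′ ends of messenger RNA (QuantSeq) in MV4-11, a leukaemia cell line of human origin with both B-lymphoid and myelomonocytic traits. Ironomycin (AM5) is a small molecule derived from salinomycin, and the title of the series concerns mitochondrial iron and a BAX/BAK-dependent cell death. The 7 groups of 3 libraries were wild type cells in DMSO, wild type cells under ironomycin for 6 h and for 24 h, cells with a CRISPR knockout of HK2 (hexokinase 2) under ironomycin for 24 h and in DMSO, and cells with a CRISPR knockout of PGP (phosphoglycolate phosphatase) under ironomycin for 24 h and in DMSO. The labels give neither an ironomycin dose, nor a time for DMSO, nor whether a knockout is a single clone, so culture time and drug cannot be fully told apart. Nothing in them states that replicates were separate cultures, and p-values then reflect only the variation among these libraries, which may be technical.

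mTORC1 promotes protein synthesis and cell growth when amino acids, energy and growth factors are sufficient. Sestrins and CASTOR1 act on the amino acid branch: SESN2 and CASTOR1 bind the GATOR2 complex when leucine or arginine is scarce, which lets GATOR1 switch off the Rag GTPases. DDIT4 (also called REDD1) acts through TSC1 and TSC2, which together inactivate the GTPase RHEB, while DEPTOR binds mTOR itself. The 4E-binding proteins EIF4EBP1 and EIF4EBP2 lie downstream, where they hold the cap-binding protein EIF4E until mTORC1 phosphorylates them. Several of these genes are known stress targets: SESN2, DDIT4 and EIF4EBP1 of the transcription factor ATF4, SESN1 and SESN2 of p53, SESN3 of FOXO factors and DDIT4 of hypoxia.

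Promoter stretches are shown for SESN2, which rose in all 4 comparisons of ironomycin with DMSO, for DDIT4, which held nearly all of its reads under ironomycin, and for TSC2, the only one of the 8 members with a RefSeq promoter entry whose window held the core of an amino acid response element. The sequences are from RefSeq (GRCh38.p14) on the + strand and end at the base before the annotated start: SESN2 at chr1:28259268-28259517, DDIT4 at chr10:72273674-72273923, and TSC2 at chr16:2047867-2047984. Capitals mark CCAAT (read as ATTGG on the opposite strand), ACGTG (the core of a hypoxia response element) and TGATGNAA (the core of an amino acid response element).
SESN2: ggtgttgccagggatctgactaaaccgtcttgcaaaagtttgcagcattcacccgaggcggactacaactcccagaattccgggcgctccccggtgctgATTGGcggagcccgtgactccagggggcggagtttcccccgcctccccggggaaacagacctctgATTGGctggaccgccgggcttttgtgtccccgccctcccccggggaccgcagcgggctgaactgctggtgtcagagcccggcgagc
DDIT4: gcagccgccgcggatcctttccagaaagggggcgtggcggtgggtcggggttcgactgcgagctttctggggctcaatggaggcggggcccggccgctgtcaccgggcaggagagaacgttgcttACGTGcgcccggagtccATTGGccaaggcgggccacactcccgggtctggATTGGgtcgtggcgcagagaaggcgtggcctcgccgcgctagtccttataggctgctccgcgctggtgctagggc
TSC2: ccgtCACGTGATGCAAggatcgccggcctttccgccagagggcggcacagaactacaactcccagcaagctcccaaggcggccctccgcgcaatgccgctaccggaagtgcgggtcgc
All windows were the 250 bases before a start, searched on both strands. SESN2 held 2 CCAAT boxes, the nearer ending 82 bases before the start, and neither ACGTG nor TGATGNAA. DDIT4 also held 2 CCAAT boxes, of which the nearer ended 71 bases before the start, and 1 ACGTG. In 1 of the 2 TSC2 windows, ACGTG matched on both strands (as CACGTG) and overlapped TGATGCAA. Single CCAAT boxes lay in 2 of the 3 SESN1 windows and in that of CASTOR1, and the SESN3, EIF4EBP2 and TSC1 windows held none of these motifs. The forkhead motif GTAAACA was in none of the members' windows. Among 35116 promoters, 32.0% held CCAAT (9.53% at least 2), 18.5% ACGTG, 3.14% TGATGNAA and 2.98% GTAAACA, so these matches are a description of the letters only.

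The libraries held 3829274 to 6069264 counts each (median 4823817), and levels are given as CPM, counts scaled to TMM-adjusted library size. Replicate 2 of wild type at 6 h stood apart, with an SD of 0.66 (log2) for its deviation from the other libraries of its group, against at most 0.469 elsewhere. All 8 markers of the line were detected (CD33 at 73.4 to 105 CPM in every library), although LYZ did not pass 2.01 CPM and IGLL1 was 2.87 ± 0.585 CPM at 24 h and 35.4 ± 14.6 CPM in DMSO in wild type cells. The 12 markers of T cells, erythroid, epithelial, fibroblast and endothelial cells summed to 0 to 43 counts per library, with HBA1, EPCAM, PECAM1 and CDH5 at 0. The highest sum, 43 counts, was in a PGP knockout library under ironomycin, and its part in the results was not tested. HK2 averaged 22 ± 2.49 CPM in HK2 knockout cells and 52.6 ± 14.7 CPM in wild type cells in DMSO (log2 difference -1.27 ± 0.28 SE, edgeR adjusted p = 0.121), and PGP 75.4 ± 7.10 CPM in PGP knockout cells and 90.6 ± 4.49 CPM in wild type cells (-0.26 ± 0.12, edgeR adjusted p = 0.879). A 3′ tag outside the edited site does not check a knockout. Fewer cells of a type and less RNA per cell cannot be told apart in such bulk libraries.

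In wild type cells, ironomycin raised SESN2 at both times and EIF4EBP1 at 6 h, and lowered SESN1 and EIF4EBP2 at 6 h and SESN3 at 24 h. DDIT4 held at most 1 read per DMSO library and more in each ironomycin library. At 6 h, 4 of the 8 other tested members were called (2 higher, 2 lower), where 22% of all 11610 genes were called (10.9% higher, 11.1% lower). At 24 h, 2 of 8 were called (1 higher, 1 lower), close to the 29.8% of all genes (15.3% higher, 14.6% lower). A call is an adjusted p under 0.05 in edgeR's quasi-likelihood test over all genes. The median log2 fold change of the 8 was 0.236 at 6 h and 0.129 at 24 h, against 0.0156 and 0.0255 over all genes tested. Both comparisons share the 3 DMSO libraries. The members thus moved in both directions, as the plot of levels by library shows.

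**Figure D1:**
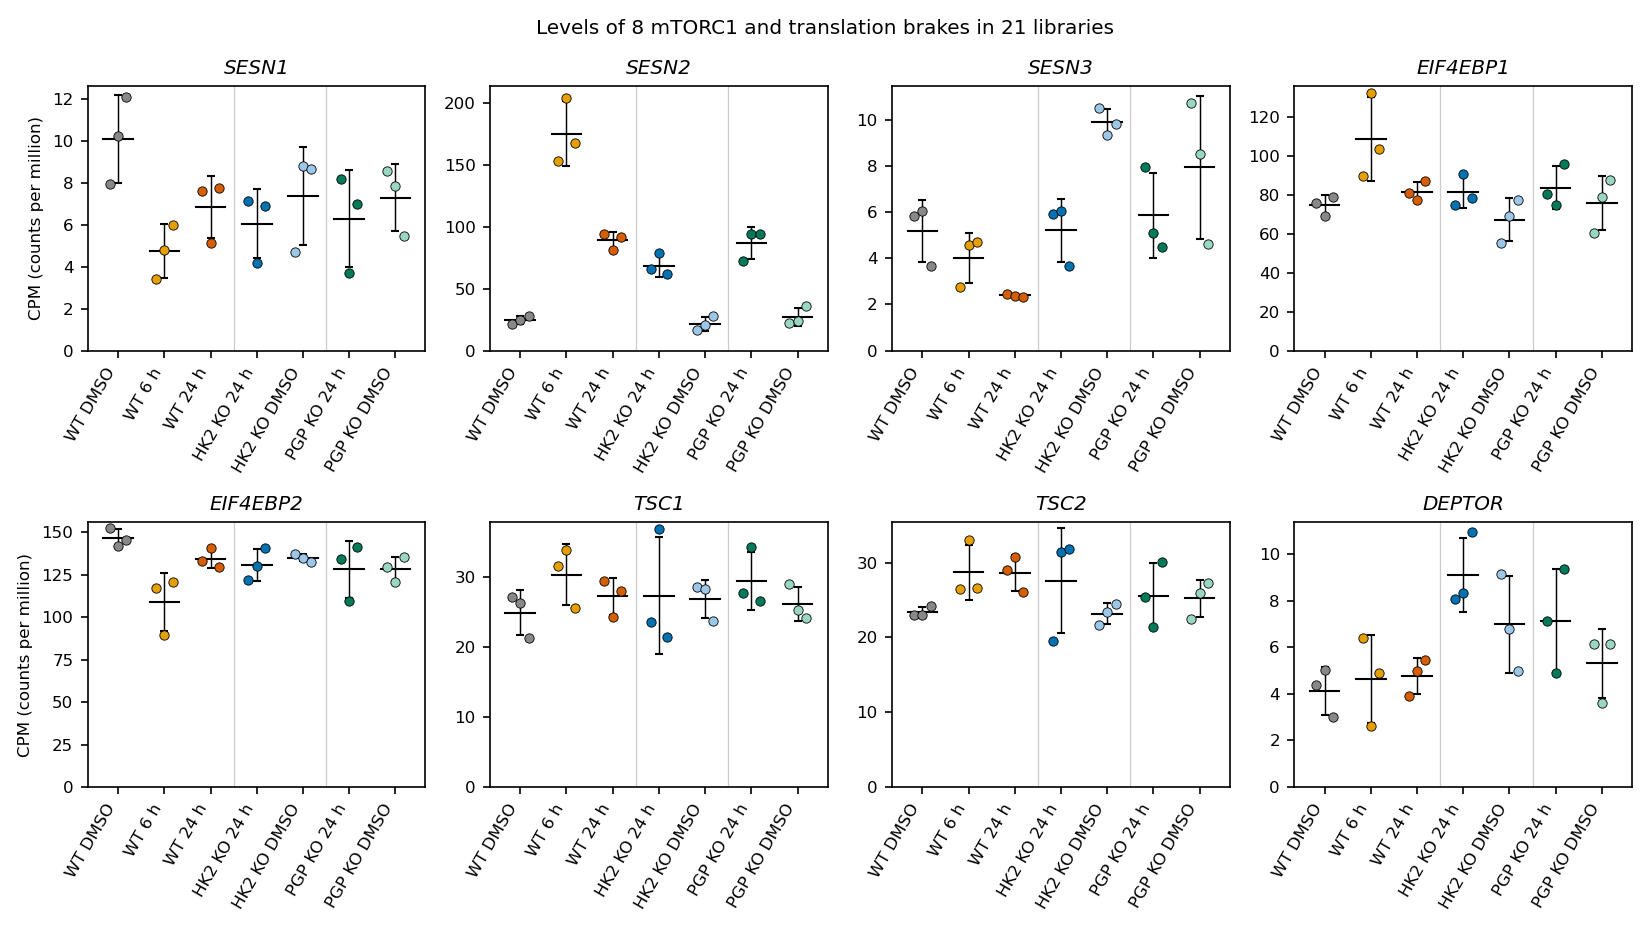
Levels in CPM (linear axes from 0) of the 8 members other than DDIT4 and CASTOR1 in the 21 libraries. Points are libraries, horizontal lines group means and bars SD (n = 3), with wild type groups first (DMSO, then ironomycin for 6 h and 24 h) and each knockout at 24 h left of its DMSO group. SESN2 stands at 153.7 CPM or above in all wild type libraries at 6 h, against 27.9 CPM or below in wild type DMSO.

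The Sestrins went separate ways. SESN2 (ENSG00000130766, chromosome 1), the leucine-sensing Sestrin, had 21.5, 24.4 and 27.9 CPM in wild type DMSO, 153.7, 205 and 168 CPM at 6 h, and 94.5, 81.5 and 91.9 CPM at 24 h. No library at either time overlapped DMSO, and no 24 h library reached the lowest at 6 h. SESN2 therefore rose at 6 h (log2 fold change 2.83 ± 0.19, edgeR adjusted p = 5.18e-10) and at 24 h (1.85 ± 0.18, edgeR adjusted p = 1.03e-07). It was lower at 24 h than at 6 h (-0.97 ± 0.17, edgeR adjusted p = 3.06e-04), a comparison with no DMSO pair for each time. Without the deviating replicate 2 of 6 h, the 6 h rise was 2.72 (edgeR adjusted p = 2.66e-10). The SESN2 values at 6 h came from 2553 reads over 3 libraries, against 388 in DMSO.

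SESN1 (ENSG00000080546, chromosome 6), the p53-responsive relative, had 7.94, 10.2 and 12.1 CPM in wild type DMSO, 3.42, 4.80 and 6.00 CPM at 6 h, and 7.60, 5.16 and 7.78 CPM at 24 h. All treated wild type libraries at both times lay below the lowest wild type DMSO library, by a small margin at 24 h. The knockout DMSO libraries, at 4.69 to 8.83 CPM for HK2 and 5.49 to 8.56 CPM for PGP, overlapped treated wild type at both times. SESN1 fell at 6 h (-1.08 ± 0.31, edgeR adjusted p = 0.0146), and its difference at 24 h did not pass (-0.57 ± 0.30, edgeR adjusted p = 0.161). The 6 h call was lost without DMSO replicate 3 (-0.93, edgeR adjusted p = 0.0779) and without 6 h replicate 1 (-0.90, edgeR adjusted p = 0.0650).

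SESN3 (ENSG00000149212, chromosome 11), known as a FOXO target, had 5.85, 6.05 and 3.65 CPM in wild type DMSO, 2.77, 4.58 and 4.69 CPM at 6 h, and 2.46, 2.38 and 2.33 CPM at 24 h. The 6 h libraries overlapped DMSO, while the 24 h libraries lay close together and below all others of wild type. SESN3 fell at 24 h (-1.09 ± 0.35, edgeR adjusted p = 0.0201), and at 6 h its difference did not pass (-0.35 ± 0.32, edgeR adjusted p = 0.480). The call rests on 36 reads at 24 h, against 79 in DMSO, and it was lost without DMSO replicate 1 or 2 (edgeR adjusted p = 0.0698 and 0.0762) or 24 h replicate 2 or 3 (0.0540 and 0.0595). The difference of 24 h from 6 h did not pass either (-0.75 ± 0.36, edgeR adjusted p = 0.166).

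DDIT4 (ENSG00000168209, chromosome 10) and CASTOR1 (ENSG00000239282, chromosome 22) were read from few counts. DDIT4 had 0, 1 and 0 counts in wild type DMSO, 6, 3 and 17 at 6 h, and 8, 20 and 16 at 24 h. Each ironomycin library thus held more reads than any DMSO library. The ratio of summed counts, scaled to library size, was 27.8 at 6 h (26 against 1 count, exact 95% interval 4.57 to 1140). At 24 h it was 45.6 (44 against 1 count, interval 7.77 to 1840). The intervals cover counting error only and pool uneven libraries. Since DDIT4 had to differ, they are no test of a difference, here or in the knockouts. Without 6 h replicate 3, the library with most reads, the 6 h ratio was 15.2 (9 against 1 count, interval 2.10 to 664). Of the last 500 exonic bases of DDIT4 in GENCODE 29, 56.2% also belong to DDIT4-AS1 on the opposite strand, which had 0 counts in every library. How strand was handled in counting is not given in the sources used here, so reads of this stretch cannot be told apart between both genes, and its part in the low DDIT4 counts was not tested.

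CASTOR1, the arginine sensor, had 1, 0 and 1 counts in wild type DMSO, 4, 1 and 2 at 6 h, and 3, 2 and 5 at 24 h. At 6 h its groups shared the count of 1, and at 24 h they did not overlap. The scaled ratio was 3.74 at 6 h (interval 0.712 to 36.9) and 5.18 at 24 h (interval 1.10 to 48.7), again for counting error only, and no test across libraries was made. Of its last 500 exonic bases, 75.8% are shared with AC004997.1 on the same strand, which had 0 counts.

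**Figure D2:**
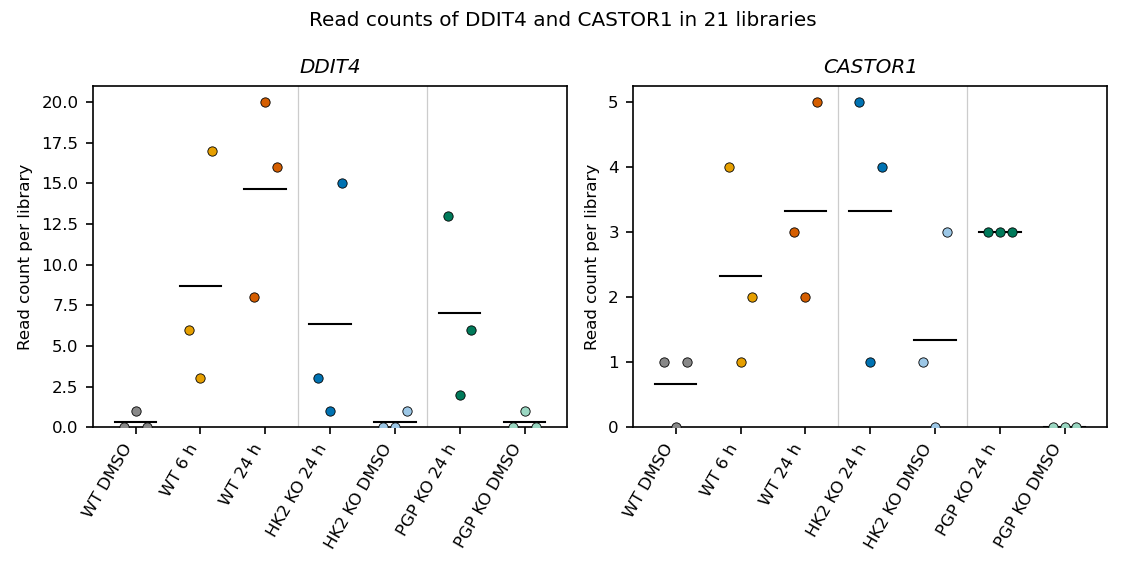
Read counts per library of DDIT4 and CASTOR1 in the 21 libraries, with horizontal lines at group means and the groups in the order of the plot of levels. DDIT4 holds at most 1 read in each of the 9 DMSO libraries and up to 20 under ironomycin, and CASTOR1 never passes 5 reads.

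The translation repressors downstream of mTORC1 moved in opposite directions at 6 h. EIF4EBP1 (ENSG00000187840, chromosome 8) had 76.0, 69.5 and 79.3 CPM in wild type DMSO, 90.1, 132 and 104 CPM at 6 h, and 80.9, 77.6 and 87.1 CPM at 24 h. The 6 h libraries lay above all of DMSO, with replicate 2 the highest, and the 24 h libraries overlapped DMSO. EIF4EBP1 rose at 6 h (0.54 ± 0.15, edgeR adjusted p = 0.0140) and did not pass at 24 h (0.13 ± 0.15, edgeR adjusted p = 0.577). The 6 h call was lost without replicate 2 of 6 h (0.39, edgeR adjusted p = 0.0713), without DMSO replicate 2 (edgeR adjusted p = 0.0602) and when only the compared libraries were fitted (0.0663).

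EIF4EBP2 (ENSG00000148730, chromosome 10) had 152.6, 142 and 145 CPM in wild type DMSO, 117, 89.5 and 121 CPM at 6 h, and 133, 141 and 129.7 CPM at 24 h. Every treated library was below every DMSO library, and replicate 2 of 6 h was the lowest of all. EIF4EBP2 fell at 6 h (-0.42 ± 0.11, edgeR adjusted p = 0.00985) and did not pass at 24 h (-0.12 ± 0.11, edgeR adjusted p = 0.442). Without replicate 2 of 6 h the value was -0.29 (edgeR adjusted p = 0.0680), and the call was also lost when only the compared libraries were fitted (0.0858).

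Between 24 h and 6 h, EIF4EBP1 differed by -0.41 ± 0.15 (edgeR adjusted p = 0.0680) and EIF4EBP2 by 0.30 ± 0.11 (edgeR adjusted p = 0.0756). Neither was a call, and the 24 h libraries of EIF4EBP1 lay below, and those of EIF4EBP2 above, all 6 h libraries. Both passed with the replicate number as a block (edgeR adjusted p = 0.0301 and 0.0383). EIF4EBP1 also passed without 6 h replicate 1 (0.0298) and with no low-count filter (0.0473), and EIF4EBP2 without 6 h replicate 3 (0.0412). Of the 8 tested members other than DDIT4, SESN2 alone was called between the times, and 4 did not overlap (30.8% of all genes did not), with 16.6% of all genes called (8.48% higher, 8.08% lower) and member and all-gene medians of -0.0788 and 0.0134.

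No call was made for TSC1, TSC2 or DEPTOR in any of the 9 comparisons when all libraries were used. TSC1 (ENSG00000165699, chromosome 9), the scaffold of the RHEB-inactivating complex, averaged 24.9 ± 3.20 CPM in wild type DMSO, 30.3 ± 4.31 CPM at 6 h and 27.2 ± 2.68 CPM at 24 h. Its log2 fold change was 0.29 at 6 h (95% interval -0.09 to 0.66) and 0.13 at 24 h (-0.24 to 0.51). TSC2 (ENSG00000103197, chromosome 16), the GTPase-activating partner, averaged 23.4 ± 0.724 CPM in DMSO, 28.7 ± 3.70 CPM at 6 h and 28.6 ± 2.37 CPM at 24 h. The TSC2 libraries at both times lay above those of DMSO, yet the fold changes of 0.29 did not pass (edgeR adjusted p = 0.227 at 6 h and 0.208 at 24 h; intervals -0.06 to 0.64 at each time).

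All of the last 500 exonic bases of TSC2 are shared with PKD1 on the opposite strand, which had 40 to 130 counts per library, so without the strand setting the TSC2 level is uncertain. DEPTOR (ENSG00000155792, chromosome 8), the inhibitor bound to mTOR, was low at 4.13 ± 1.04 CPM in wild type DMSO, 4.63 ± 1.90 CPM at 6 h and 4.77 ± 0.788 CPM at 24 h. Its fold changes of 0.19 (interval -0.52 to 0.89) at 6 h and 0.23 (-0.48 to 0.93) at 24 h leave room for a sizeable change either way. Across wild type, 5 of the 8 tested members other than DDIT4 did not overlap DMSO at 6 h, where 34.4% of all genes did not, and 5 of 8 at 24 h, where the share was 46.6%.

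**Figure D3:**
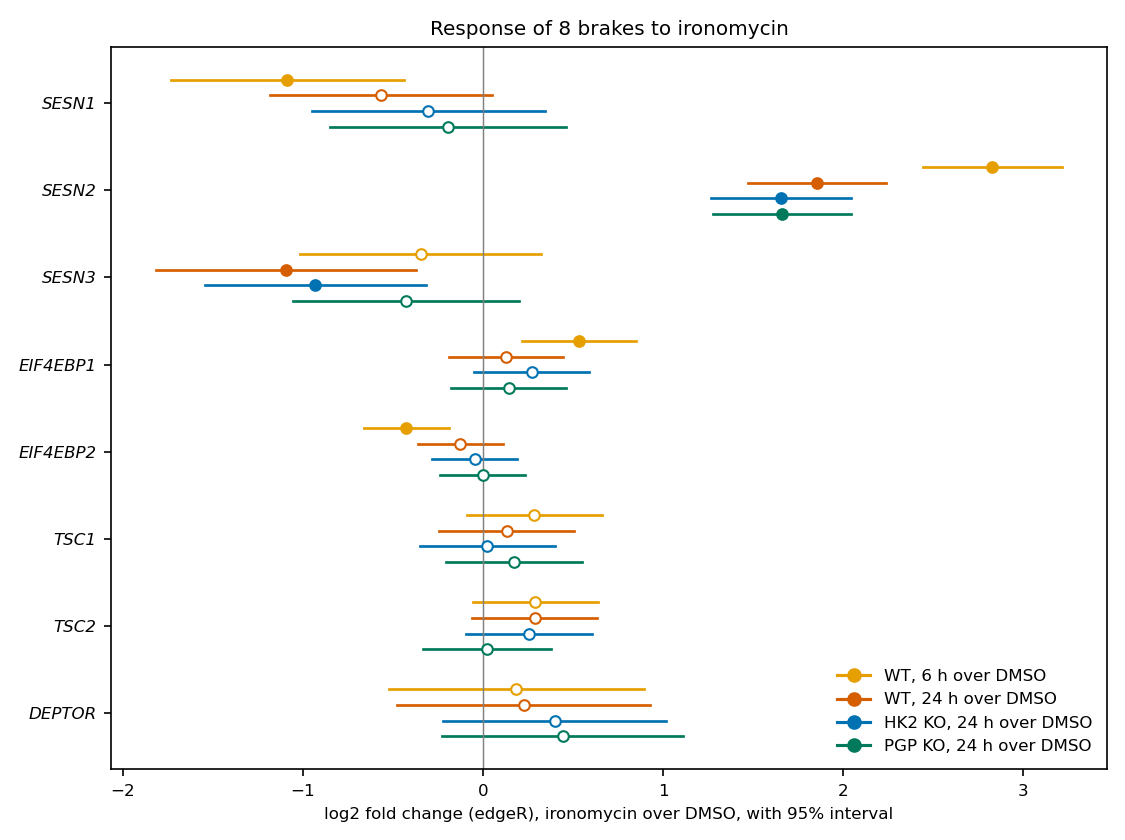
Log2 fold changes (ironomycin over DMSO, edgeR) of 8 members in wild type cells at 6 h and 24 h and in HK2 and PGP knockout cells at 24 h, with 95% intervals. Filled points are calls. SESN2 lies between 1.65 and 2.83 in all 4 comparisons, and the intervals of TSC1, TSC2 and DEPTOR include 0 throughout.

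In the knockouts, SESN2 rose again at 24 h. Without DDIT4, 2 of 8 tested members were called in HK2 knockout cells (1 higher, 1 lower), against 29.4% of all genes (15.9% higher, 13.5% lower). In PGP knockout cells 1 of 8 was called, SESN2, against 31.5% (16.1% higher, 15.4% lower). Member and all-gene medians were 0.141 and 0.0342 in HK2 knockout cells, and 0.083 and 0.037 in PGP knockout cells. Of these 8 members, 2 did not overlap their DMSO group in HK2 knockout cells (SESN2 and SESN3; 45.4% of all genes) and 1 in PGP knockout cells (SESN2; 44.1%). Each knockout was compared with its own 3 DMSO libraries.

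SESN2 had 65.8, 78.9 and 61.9 CPM in HK2 knockout cells under ironomycin, against 16.7, 20.5 and 28.1 CPM in HK2 knockout DMSO, and it rose by 1.65 ± 0.19 (edgeR adjusted p = 8.47e-07). In PGP knockout cells it had 72.3, 94.6 and 94.5 CPM under ironomycin, against 22.5, 24.0 and 35.8 CPM in DMSO, and it rose by 1.66 ± 0.19 (edgeR adjusted p = 5.50e-07). The treated and DMSO libraries were apart in both lines. The difference of the 24 h response from that of wild type was -0.20 for HK2 (95% interval -0.74 to 0.34) and -0.19 for PGP (-0.73 to 0.34), with an edgeR adjusted p of 1 for each.

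Ordered by mean, SESN2 stood at 175 ± 26.4 CPM in wild type at 6 h, 89.3 ± 6.87 in wild type at 24 h, 87.1 ± 12.9 in PGP knockout at 24 h, 68.8 ± 8.88 in HK2 knockout at 24 h, then 27.4 ± 7.28 in PGP knockout, 24.6 ± 3.18 in wild type and 21.8 ± 5.76 in HK2 knockout cells in DMSO. Wild type and PGP knockout at 24 h overlapped, as did both knockouts at 24 h and the 3 DMSO groups among themselves. The HK2 knockout libraries at 24 h (61.9 to 78.9 CPM) lay below all wild type libraries at 24 h (81.5 to 94.5 CPM). That pair of groups was not tested directly.

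DDIT4 had 3, 1 and 15 counts in HK2 knockout cells under ironomycin, against 0, 0 and 1 in HK2 knockout DMSO, a scaled ratio of 20.8 (interval 3.30 to 864). In PGP knockout cells it had 13, 2 and 6 counts under ironomycin, against 0, 1 and 0 in DMSO, a ratio of 19.2 (interval 3.09 to 795). In HK2 knockout cells 1 treated library held no more reads than the highest DMSO library, so the groups met at 1 read. Without replicate 3 of the HK2 knockout ironomycin group, which held 15 of the 19 reads, the ratio was 6.91 (4 against 1 count, interval 0.683 to 340). Without replicate 1 of the PGP knockout ironomycin group the ratio was 11 (8 against 1 count, interval 1.48 to 489).

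SESN3 had 5.93, 6.03 and 3.64 CPM in HK2 knockout cells under ironomycin, against 10.5, 9.34 and 9.80 CPM in HK2 knockout DMSO. All treated libraries were lower, and SESN3 fell (-0.93 ± 0.30, edgeR adjusted p = 0.0207). The call was lost without replicate 1 of the DMSO group (edgeR adjusted p = 0.0570) or replicate 3 of the ironomycin group (-0.72, edgeR adjusted p = 0.114). SESN3 had 7.96, 5.11 and 4.48 CPM in PGP knockout cells under ironomycin, against 10.7, 8.50 and 4.61 CPM in DMSO. These groups overlapped, each ironomycin library was lower than the DMSO library of its number, and the difference did not pass (-0.43 ± 0.30, edgeR adjusted p = 0.307; with the replicate block -0.41, edgeR adjusted p = 0.259). The responses minus that of wild type were 0.16 ± 0.45 for HK2 and 0.67 ± 0.46 for PGP, with an edgeR adjusted p of 1 for each, so no difference in response was shown.

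SESN1 ranged from 4.16 to 7.12 CPM in HK2 knockout cells under ironomycin and from 4.69 to 8.83 CPM in HK2 knockout DMSO, with a fold change that did not pass (-0.30 ± 0.31, edgeR adjusted p = 0.504). In PGP knockout cells SESN1 ranged from 3.72 to 8.17 CPM under ironomycin and from 5.49 to 8.56 CPM in DMSO, and did not pass either (-0.19 ± 0.32, edgeR adjusted p = 0.682). EIF4EBP1 averaged 81.4 ± 8.23 CPM in HK2 knockout cells under ironomycin and 67.4 ± 11.2 CPM in DMSO (0.27 ± 0.15, edgeR adjusted p = 0.199). In PGP knockout cells the EIF4EBP1 means were 83.9 ± 10.9 CPM under ironomycin and 75.8 ± 13.8 CPM in DMSO (0.14 ± 0.15, edgeR adjusted p = 0.518). EIF4EBP2 averaged 131 ± 9.39 CPM in HK2 knockout cells under ironomycin and 135 ± 2.12 CPM in DMSO, and 128 ± 16.7 CPM in PGP knockout cells under ironomycin and 128 ± 7.20 CPM in DMSO, overlapping in both. EIF4EBP1 and EIF4EBP2 thus showed no call in either knockout, for which no 6 h libraries are at hand.

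TSC1 averaged 27.3 ± 8.34 CPM in HK2 knockout cells under ironomycin and 26.8 ± 2.74 CPM in DMSO, and 29.4 ± 4.14 CPM in PGP knockout cells under ironomycin and 26.1 ± 2.48 CPM in DMSO. TSC2 had 19.5, 31.4 and 31.8 CPM in HK2 knockout cells under ironomycin, against 21.7, 23.4 and 24.4 CPM in DMSO (0.26 ± 0.17, edgeR adjusted p = 0.274). Its replicate 1 was the lowest of all 6, and without it TSC2 would be called higher (0.45, edgeR adjusted p = 0.0400). TSC2 averaged 25.6 ± 4.32 CPM in PGP knockout cells under ironomycin and 25.2 ± 2.45 CPM in DMSO. DEPTOR averaged 9.11 ± 1.58 CPM in HK2 knockout cells under ironomycin and 6.98 ± 2.08 CPM in DMSO, and 7.12 ± 2.24 CPM in PGP knockout cells under ironomycin and 5.30 ± 1.46 CPM in DMSO. In each knockout the groups of TSC1, TSC2 and DEPTOR overlapped. DEPTOR was higher in the ironomycin library of all 3 same-numbered pairs of PGP knockout cells, without a call (0.44, edgeR adjusted p = 0.319; with the replicate block 0.44, edgeR adjusted p = 0.295).

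CASTOR1 had 5, 1 and 4 counts in HK2 knockout cells under ironomycin, against 1, 0 and 3 in DMSO, a scaled ratio of 2.73 (interval 0.789 to 11.9). In PGP knockout cells it had 3 counts in each treated library and 0 in each DMSO library, 2.74-fold higher if that DMSO group is set at 3 counts. For the counts as read, 9 against 0, the exact 95% lower limit of the ratio for counting error was 1.81.

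In DMSO, the knockouts and wild type showed no member call, with 0.00861% of all genes called for HK2 and 0% for PGP. Unadjusted p-values were under 0.05 for 2 of 8 members for HK2 (SESN3 and DEPTOR) and for 0 of 8 for PGP, and DESeq2 called 0 members for either. SESN3 had 10.5, 9.34 and 9.80 CPM in HK2 knockout cells, against 5.85, 6.05 and 3.65 CPM in wild type cells. These groups did not overlap (13.8% of all genes did not), and the log2 difference was 0.94 ± 0.29 (95% interval 0.33 to 1.55, edgeR adjusted p = 0.552). DEPTOR averaged 6.98 ± 2.08 CPM in HK2 knockout cells and 4.13 ± 1.04 CPM in wild type cells (0.76 ± 0.32, edgeR adjusted p = 0.875). SESN3 averaged 7.94 ± 3.08 CPM in PGP knockout cells and 5.18 ± 1.33 CPM in wild type cells (0.61 ± 0.30, edgeR adjusted p = 0.886). EIF4EBP2 was lower in every library of both knockouts, at 133 to 137 CPM for HK2 and 121 to 135 CPM for PGP, against 142 to 152.6 CPM in wild type DMSO, without a call (13.1% of all genes did not overlap for PGP). For the difference in response to ironomycin, 0 of 8 members and 0% of all genes were called for each knockout, no member had an unadjusted p under 0.05, and DESeq2 called 0 members.

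Among other genes of the pathway, those of mTORC1 and its lysosomal platform were called about as often as all genes, 6 of 30 at 6 h (22% of all genes) and 8 of 30 at 24 h (29.8%). The lists were mTORC1 with RHEB (7 tested), GATOR1 with KICSTOR (7), GATOR2 (5), Rag and Ragulator with folliculin (11 of 13), further brakes (5 of 8), AMPK with LKB1 (7 of 9) and cap binding with S6 kinases (10 of 11). All values below are for wild type cells, ironomycin over DMSO, except where a knockout is named. Beside them stand the shares of all genes, 10.9% higher and 11.1% lower at 6 h, and 15.3% higher and 14.6% lower at 24 h. These lists were chosen with earlier results of these data known, so a list set against those shares is a description only.

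In the mTORC1 list 0 rose and 1 fell at 6 h (median -0.165), and none was called at 24 h (median -0.278). TTI1, which helps assemble mTOR, averaged 47.0 ± 11.3 CPM at 6 h and 67.2 ± 4.84 CPM in DMSO (-0.52, edgeR adjusted p = 0.0311). That call was lost without any 1 of 5 libraries (DMSO replicates 1, 2 and 3 and 6 h replicates 1 and 3; edgeR adjusted p between 0.0553 and 0.123) and when only the compared libraries were fitted (0.100). At 24 h TTI1 was called lower in HK2 knockout cells (-0.47, edgeR adjusted p = 0.0392) and in PGP knockout cells (-0.63, edgeR adjusted p = 0.00659). Of this list, 1 rose and 1 fell in HK2 knockout cells (15.9% and 13.5% of all genes). In PGP knockout cells 1 rose and 3 fell (16.1% and 15.4% of all genes). GATOR1 with KICSTOR, which inactivates the Rag GTPases, had no call at 6 h (median 0.257) and 1 fall at 24 h (median -0.326). KPTN, a KICSTOR subunit, averaged 21.2 ± 2.60 CPM at 24 h and 33.1 ± 1.58 CPM in DMSO (-0.64, edgeR adjusted p = 0.00166).

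GATOR2, the complex that Sestrins bind, had 1 fall at 6 h (median 0.0254) and 2 rises at 24 h (median 0.274). SEH1L fell at 6 h (-0.67, edgeR adjusted p = 0.0355), a call lost without 6 h replicate 2 (0.179) without DMSO replicate 1 (0.0537) or 3 (0.186), and when only the compared libraries were fitted (0.156). SEC13, shared with the COPII coat, averaged 154 ± 12.3 CPM at 24 h and 104 ± 8.54 CPM in DMSO (0.57, edgeR adjusted p = 0.00167). WDR59 rose as much (0.57, edgeR adjusted p = 0.0155), but not without DMSO replicate 1 (0.0821) or 24 h replicate 3 (0.0811), nor without the low-count filter (0.0843). It was also called higher at 24 h in HK2 knockout cells (0.58, edgeR adjusted p = 0.0142) and PGP knockout cells (0.49, edgeR adjusted p = 0.0377).

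In the Rag and Ragulator list 3 rose and 1 fell at 6 h (median -0.074), and 4 rose and 1 fell at 24 h (median 0.0389). FLCN and FNIP1, which form a GTPase-activating complex for RRAGC and RRAGD, rose at 6 h by 0.90 each (edgeR adjusted p = 6.27e-05 and 6.86e-05). FLCN averaged 72.8 ± 2.44 CPM at 6 h and 39.0 ± 4.13 CPM in DMSO, and its rise at 24 h was 0.53 (edgeR adjusted p = 0.00531). RRAGD, a Rag GTPase, averaged 16.5 ± 2.05 CPM at 24 h and 6.09 ± 1.41 CPM in DMSO (1.45, edgeR adjusted p = 9.96e-05). The falls were in the Ragulator subunits LAMTOR5 at 6 h (-0.41, edgeR adjusted p = 0.00686) and LAMTOR2 at 24 h (-0.43, edgeR adjusted p = 0.0282). The LAMTOR5 call was lost when only the compared libraries were fitted (0.0726), and the LAMTOR2 call without DMSO replicate 1 or 2 or 24 h replicate 1 or 3 (0.0576 to 0.102).

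Of the further brakes 3 of 5 rose at both times in wild type cells, against 10.9% of all genes at 6 h and 15.3% at 24 h (medians 0.605 and 0.472). GRB10, an adaptor that dampens insulin receptor signalling, averaged 90.1 ± 9.77 CPM at 6 h and 24.1 ± 4.88 CPM in DMSO (1.90, edgeR adjusted p = 1.25e-07), and it rose by 1.44 at 24 h (edgeR adjusted p = 2.58e-06). PDCD4, which blocks the helicase EIF4A, rose at 6 h (0.71, edgeR adjusted p = 0.00422). BMT2 (also called SAMTOR), the sensor of S-adenosylmethionine, rose at 24 h (0.62, edgeR adjusted p = 0.0120), a call lost without 24 h replicate 2 (0.0530) and without the low-count filter (0.106). In HK2 knockout cells at 24 h BMT2 did not pass (0.40, edgeR adjusted p = 0.108). In PGP knockout cells it averaged 8.90 ± 0.922 CPM at 24 h and 12.3 ± 1.65 CPM in DMSO, without a call (-0.46, edgeR adjusted p = 0.06305). The BMT2 response of PGP knockout cells minus that of wild type was -1.08 ± 0.26, also without a call. Of the AMPK list only PRKAG1 was called, at 6 h (0.70, edgeR adjusted p = 0.0207; list median -0.256, and 0.0106 at 24 h). It was lost without 6 h replicate 2 (0.39, edgeR adjusted p = 0.166), without DMSO replicate 2 or 3 (0.0551 and 0.111) and when only the compared libraries were fitted (0.118). In HK2 knockout cells at 24 h, 2 of the 5 further brakes rose and 1 fell (15.9% and 13.5% of all genes, list median 0.4). In PGP knockout cells 1 rose and 1 fell (16.1% and 15.4% of all genes, list median 0.109). The fall in each was EEF2K (-0.41 and -0.44, edgeR adjusted p = 0.0343 and 0.0218).

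The genes listed under cap binding with S6 kinases fell or did not pass. In this list 4 of 10 fell and none rose at 6 h (median -0.23; 11.1% of all genes fell), and 5 of 10 fell and none rose at 24 h (median -0.263; 14.6% of all genes fell). EIF4E, the cap-binding protein that EIF4EBP1 and EIF4EBP2 hold, averaged 94.1 ± 3.32 CPM in DMSO, 66.6 ± 5.86 CPM at 6 h and 64.2 ± 3.58 CPM at 24 h. EIF4E fell at both times (-0.50 and -0.55, edgeR adjusted p = 0.00224 and 5.14e-04). EIF4G1, the scaffold that competes with the 4E-binding proteins for EIF4E, averaged 286 ± 6.01 CPM at 6 h and 430.5 ± 30.7 CPM in DMSO (-0.59, edgeR adjusted p = 4.72e-04). EIF4G2 averaged 1026 ± 112 CPM at 24 h and 1413 ± 58.8 CPM in DMSO (-0.46, edgeR adjusted p = 0.00289). In the knockouts at 24 h, 4 of 10 fell in HK2 knockout cells (13.5% of all genes) and 6 of 10 in PGP knockout cells (15.4%), with none higher (medians -0.28 and -0.354).

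Genes that share known inducers with the members differed by list. NUPR1, TP53I3 and BCL6 averaged under 10 counts in every DMSO group and passed the filter through the ironomycin groups, so their tests are not given and they are left out of the counts. Of the 8 other genes of the ATF4 and CHOP stress response, ATF4 and DDIT3 themselves included, all rose in each of the 4 comparisons of ironomycin with DMSO. Of all genes, 10.9% rose in wild type at 6 h, 15.3% at 24 h, 15.9% in HK2 and 16.1% in PGP knockout cells. The list medians were 1.95 at 6 h and 1.67 at 24 h in wild type, 1.38 in HK2 and 1.69 in PGP knockout cells. TRIB3, a pseudokinase, averaged 287 ± 46.8 CPM at 6 h and 19.5 ± 6.17 CPM in DMSO (3.87, edgeR adjusted p = 4.28e-10). DDIT3, which encodes CHOP, rose by 2.96 at 6 h (edgeR adjusted p = 1.60e-09). NUPR1, a stress-induced chromatin protein, averaged 27.7 ± 0.985 CPM at 24 h and 0.792 ± 0.276 CPM in DMSO. This list was known to rise when it was chosen. The p53, hypoxia and FOXO lists below were also chosen with earlier results of these data known.

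Of 13 p53 targets, 2 rose and 4 fell at 6 h (median -0.192; 10.9% of all genes rose and 11.1% fell), and 1 rose and 3 fell at 24 h (median -0.254; 15.3% and 14.6% of all genes). BBC3, a BH3-only death gene, averaged 171 ± 31.3 CPM at 6 h and 82.2 ± 19.4 CPM in DMSO (1.06, edgeR adjusted p = 1.40e-05). TP53I3 was low, at 2.21 ± 0.867 CPM at 6 h and 0.389 ± 0.0495 CPM in DMSO. MDM2, which targets p53 for breakdown, averaged 70.2 ± 7.94 CPM at 6 h and 110 ± 3.68 CPM in DMSO (-0.65, edgeR adjusted p = 3.92e-04), and AEN, an exonuclease, fell by 0.95 at 24 h (edgeR adjusted p = 4.02e-05). SESN1 thus fell beside some p53 targets while others rose.

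Of 7 tested hypoxia targets, 3 rose at 6 h (median 0.194; 10.9% of all genes) and 5 at 24 h (median 0.496; 15.3% of all genes), with none lower. VEGFA averaged 106 ± 7.99 CPM at 24 h and 16.3 ± 6.15 CPM in DMSO (2.68, edgeR adjusted p = 1.01e-07), and BNIP3L, a mitophagy receptor, rose by 1.27 (edgeR adjusted p = 4.69e-07). Of 8 tested FOXO targets, 4 rose at 6 h (median 0.491; 10.9% of all genes) and 4 at 24 h (median 0.85; 15.3% of all genes), with none lower, whereas SESN3 was lower at 24 h. FBXO32, a ubiquitin ligase subunit, rose by 1.97 at 6 h (edgeR adjusted p = 1.48e-06), CCNG2 by 1.92 at 6 h (edgeR adjusted p = 0.00191) and KLF6 by 1.26 at 24 h (edgeR adjusted p = 1.72e-04).

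**Figure D4:**
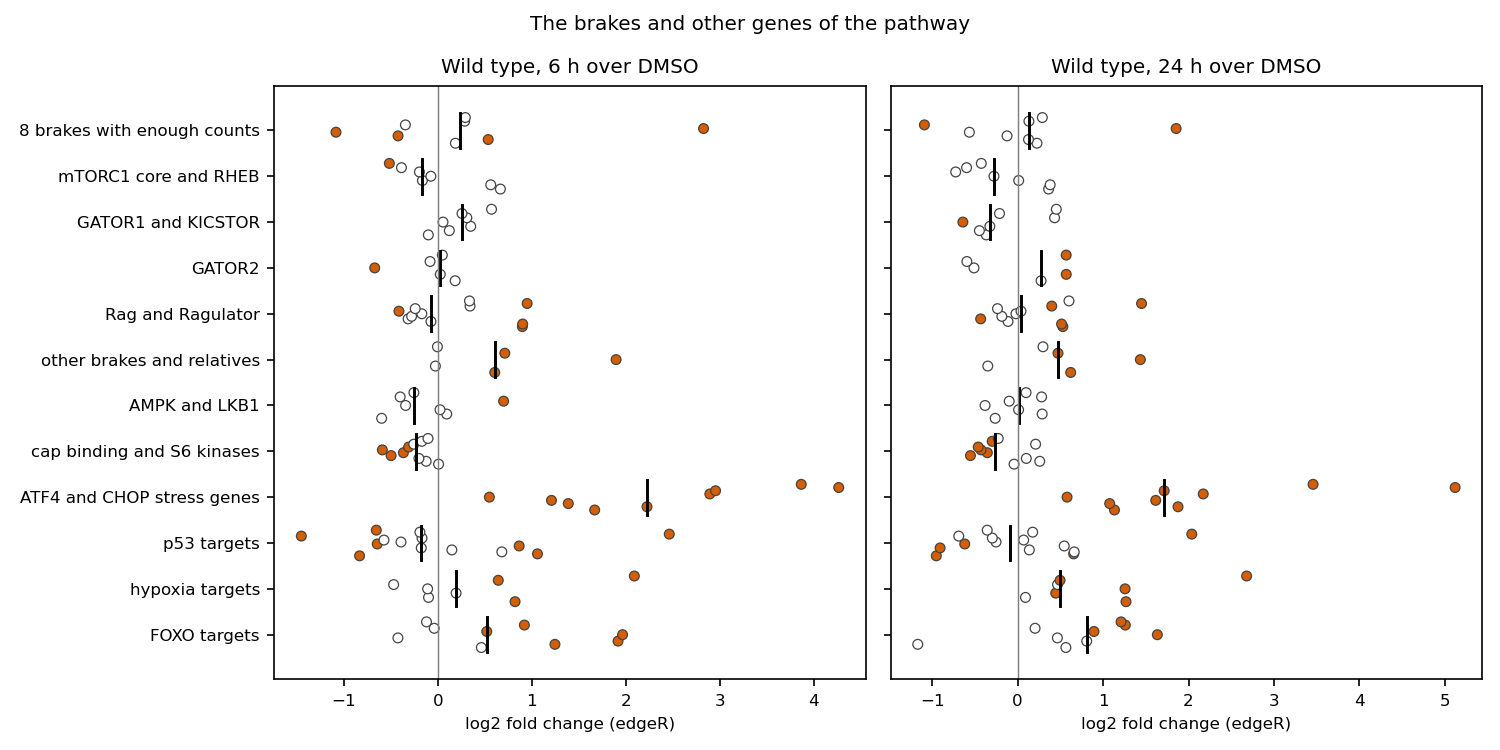
Log2 fold changes (edgeR) in wild type cells at 6 h (left) and 24 h (right) over DMSO, 1 point per tested gene, for 8 members and 11 lists of related genes. Filled points are calls and black lines are list medians. NUPR1, TP53I3 and BCL6, which passed the filter through the ironomycin groups, are plotted and enter their list medians, and their calls count for nothing. The 8 other genes of the ATF4 and CHOP stress response, a list known to rise when chosen, lie above 0 at both times. The members spread to both sides.

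The genes most like a member were taken by Pearson's r of log2 CPM over the 7 group means, among 9135 genes averaging 5 CPM or more, as a description with no test. Nearest to SESN2 were the aminoacyl-tRNA synthetases GARS1 (r = 0.999) and CARS1 (0.998) and the transcription factor IRF1 (0.996). Nearest to DDIT4 were TTLL4 (0.987), ARHGEF12 (0.982) and NFKB1 (0.98), on few DDIT4 reads. Nearest to EIF4EBP1 were VEZF1 (0.999), USP22 (0.993) and the pseudogene EIF2S2P4 (0.986), whose reads may belong to EIF2S2. The 7 points share libraries and treatment, and nothing about shared control follows from them.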

How the data were processed

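The authors deposited whole-number read counts for each Ensembl gene, with no normalization. Per the submitters' processing notes, bcl2fastq 2.20.0.422, HISAT2, HTSeq and hg19 were used; per the labels' protocols, libraries were made from total RNA with the QuantSeq 3′ kit. The strand setting is not given in the sources used here, so antisense and overlapping genes are uncertain. Identifiers were matched to symbols through a gene name table and GENCODE 29 (51854 of 54042; the 2188 unmatched held 8 counts). GENCODE 29 and the RefSeq promoters are on GRCh38 and served for names, 3′ end overlaps and sequences only.

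Counts were tested with edgeR 4.0.16 (R 4.3.3, limma 3.58.1): TMM, filterByExpr by group (minimum count 10, minimum total 15; 11610 genes kept), and a single quasi-likelihood model with 7 group means over the 21 libraries (common BCV 0.149). Calls needed a Benjamini-Hochberg adjusted p under 0.05 across the genes kept. Of 9 comparisons, 5 set ironomycin groups against DMSO or against each other, 2 set knockouts against wild type in DMSO and 2 set responses against each other. Fold changes are log2 ± SE, levels CPM as mean ± SD, n = 3. The scripts were tested on simulated data. Python 3.11.15, pandas 2.3.3, numpy 2.4.6 and matplotlib 3.10.9 served for tables and figures.

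The members and lists were chosen with earlier results of these data known. A planned marker gene is not reported here. DDIT4, NUPR1, TP53I3 and BCL6, low in DMSO, were left out of the counts of calls after their counts were seen. Some counts of refits include DDIT4, NUPR1 and TP53I3, as stated there. All members are named, and of each further list up to 2 called genes in each direction, by adjusted p, at 6 h and at 24 h in wild type. Alternatives were DESeq2 1.42.0, a replicate block, RLE size factors, fitting only the compared groups, dropping the low-count filter, and leaving out each library in turn. The labels do not say what replicate numbers mark. Deviations of same-numbered libraries correlated at 0.249, 0.168 and 0.253 between ironomycin and DMSO in PGP knockout cells, all above 0.1, so the numbers count as pairing libraries in that comparison. In the other comparisons at least 1 correlation did not pass 0.1. The results given are from the fit without a block, for PGP knockout cells too, except where the block is named. With the block, 4081 of 11610 genes were called in PGP knockout cells under ironomycin, against 3661 without it. Counts also rose with the block in the other ironomycin comparisons, for example from 1922 to 2514 genes between 24 h and 6 h.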

Additional observations from a re-analysis of the deposited data

How the results depend on the processing

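Of 10 called member differences (DDIT4 left out), refitted 110 times in all, 97 refits kept the call, 13 lost it and 0 turned the direction. All 13 losses fell on SESN1, EIF4EBP1 and EIF4EBP2 at 6 h and on SESN3 in wild type and HK2 knockout cells. No SESN2 call was lost. Of 62 member differences not called, 778 refits gave 6 calls and 44 turned the direction, among them DEPTOR at 6 h (-0.10 to 0.47 on leaving out 1 library; below 0 without DMSO replicate 3 or 6 h replicate 1), SESN1 in PGP knockout cells (-0.42 to 0.061, above 0 without PGP knockout ironomycin replicate 2) and the SESN2 difference in response for HK2 (-0.35 to 0.021, above 0 without HK2 knockout DMSO replicate 3) and for PGP (-0.31 to 0.048, above 0 without PGP knockout DMSO replicate 3). Of 40 named list differences (NUPR1 and TP53I3 included), 440 refits gave 26 lost calls and 0 reversals. These 40 were picked for their small adjusted p, and NUPR1 and TP53I3 had to differ. The lack of reversals was thus largely fixed in advance. The counts of members below include DDIT4, which had to differ, so they show only how settings move the calls. At 6 h against DMSO the count was 5 (4 without DDIT4), and 3 when only the compared groups were fitted. Over all 11610 genes tested, these settings called 2556 and 1189. Leaving out 1 library gave 3 to 5 members and 1783 to 2563 genes. Between 24 h and 6 h the count was 1 (also without DDIT4), against 2 with no low-count filter and 3 with the replicate block. Over all genes, these settings called 1922 of 11610, 2030 of 25109 and 2514 of 11610. On leaving out 1 library, 1 to 2 members and 1300 to 2148 genes were called. In HK2 knockout cells, leaving out 1 library gave 1 to 4 members (3 with all, 2 without DDIT4) and 2637 to 3017 genes (3418 with all). In PGP knockout cells it gave 1 to 2 members (2 with all, 1 without DDIT4) and 2864 to 3221 genes (3661 with all). Apart from EIF4EBP1 and EIF4EBP2 between 24 h and 6 h, the replicate block changed no member call that is reported. The cause of these changes was not tested. DDIT4 and CASTOR1 rest on at most 20 and 5 reads per library, which limits what any setting can show for them.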
